A study of Mus musculus with 3 samples.

Results

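The genes described here encode secreted bone morphogenetic proteins (BMPs) and secreted proteins that bind and block them. They were chosen by name as Bmp2, Bmp3, Bmp4, Bmp5, Bmp6, Bmp7, Nog (noggin) and Grem1 (gremlin 1), and every probe set that the platform annotation assigns to 1 of them alone was used. A probe set is the group of short probes on the array that together read a transcript. Of the 8 genes, 7 had a probe set, out of 18193 genes on the array, with 11 probe sets in all. Bmp3 had none and was not analysed here. RNA came from dental papillae of ICR mice at embryonic day 16 (E16), embryonic day 18 (E18) and postnatal day 3 (P3). The papilla is the mesenchymal core of the tooth germ, and here it was separated with enzymes from the first molar of the lower jaw. Every sample pooled more than 20 papillae, the labels name no treatment or genotype beyond the ICR stock, and each stage has 1 array. Without replicates no test or error between samples can be given, so each statement compares 3 pooled samples.

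BMPs are ligands of the TGF-beta superfamily that bind pairs of serine/threonine kinase receptors and signal through Smad1, Smad5 and Smad9. Noggin, gremlin 1 and other secreted antagonists bind the ligands and keep them from their receptors. In the tooth, BMP4 is known as a signal passed between epithelium and mesenchyme from the earliest stages, and BMP2 as a signal of the enamel knot and of odontoblasts, the cells that make dentin.

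The deposited value of a probe set is a ratio to the middle of its 3 arrays, so the ratio of one stage to another is direct. A signal in arbitrary units was recovered from the number steps in these ratios. It can be understated but not overstated. Signals of different probe sets are not compared with each other. A signal under 82.0, the pooled median of all probe sets, is called below the floor. Where 1 of 2 arrays is below the floor, the fold is given as a bound ("at least"). A gene is called higher or lower at 2-fold or more by its brightest probe set, the one with the highest mean signal. The probe sets of a gene differed among themselves by a pooled SD of 0.61 (E18 against E16), 0.54 (P3 against E18) and 0.61 (P3 against E16) on the log2 scale, over 4046, 3994 and 3981 genes with several measured probe sets. That spread describes how far probe sets of a gene disagree on the same arrays. It is not an error between samples, and it leaves out errors shared by a whole array.

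Bmp2 was low at E16 and high from E18 on. Its single probe set had deposited ratios of 0.0812 at E16, 1 at E18 and 1.08 at P3, which correspond to signals of 136, 1674 and 1806. E16 was the low array, and E18 and P3 lay close together. Relative to E16, Bmp2 was 12.3-fold higher at E18 and 13.3-fold higher at P3. The P3 and E18 arrays differed 1.08-fold. Among genes at or above the floor on both arrays, its E18 against E16 difference ranked 2 of 10351 from the top, and its P3 against E16 difference ranked 10 of 10264. On the log2 scale these 2 differences were 3.62 and 3.73, against a pooled SD between probe sets of 0.61 in each comparison. With a single probe set, Bmp2 has no second reading on the array. The ranking leaves out genes with 1 array below the floor. Of those, 143 were called higher at E18 against E16 and 195 at P3 against E16.

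Bmp4, the ligand that Msx1 is known to maintain in dental mesenchyme, was lower on each later array. Its single probe set had signals of 977 at E16, 670 at E18 and 354.5 at P3 (deposited ratios 1.46, 1 and 0.529). E16 was highest and P3 lowest. The decrease was 1.46-fold from E16 to E18 and 1.89-fold from E18 to P3, each under 2-fold, and 2.75-fold from E16 to P3. The log2 difference of -1.46 between P3 and E16 was larger than the pooled SD between probe sets, while that of -0.54 between E18 and E16 was smaller.

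**Figure D1:**
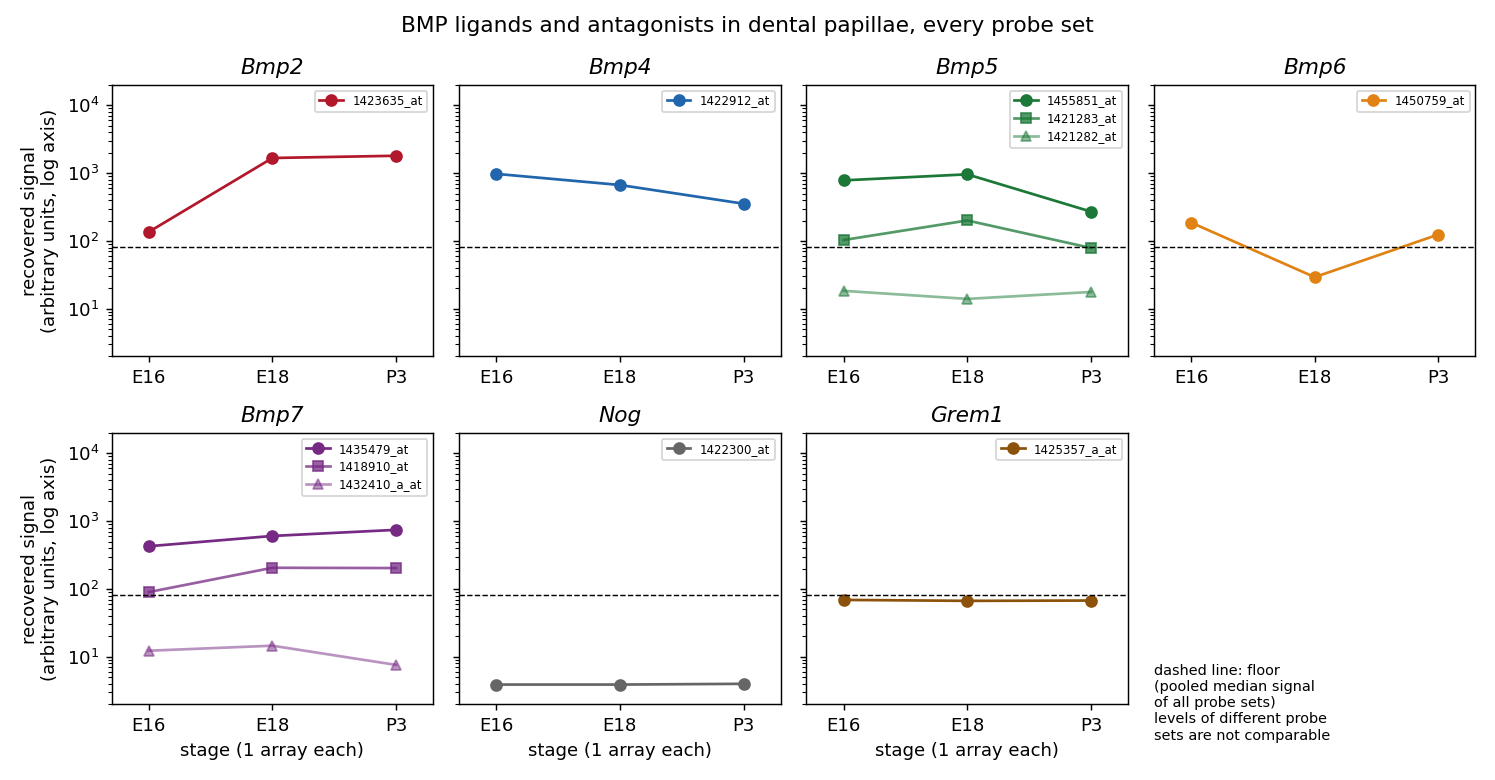
Recovered signal (arbitrary units, log axis) of each of the 11 probe sets at E16, E18 and P3, with 1 array per stage and 1 panel per gene; the dashed line is the floor of 82.0. Bmp2 goes from 136 at E16 to 1674 and 1806, Bmp4 falls from 977 to 354.5, Bmp6 dips to 29.3 at E18, and the probe sets of Nog and Grem1 lie below the floor at every stage.

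Bmp5, Bmp6 and Bmp7 form a subgroup of BMP ligands that are close to each other in sequence, and their patterns differed. Bmp5 had its lowest value at P3 by the probe sets above the floor. The brightest of its 3 probe sets (1455851_at) had signals of 783, 961 and 271 at E16, E18 and P3, so that E16 and E18 were both high. It was 3.55-fold lower at P3 than at E18 and 2.89-fold lower than at E16, with 1.23-fold more at E18 than at E16. Another Bmp5 probe set (1421283_at) read 103, 201 and 78.9, again with the peak at E18. Its P3 signal was under that of E18 by at least 2.45-fold but under that of E16 by at least 1.26-fold, so the size of the decrease from E16 depends on the probe set. The other one (1421282_at) read 18.4, 14.0 and 17.7, below the floor on every array.

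Bmp7 was highest at P3 by its brightest probe set (1435479_at), with signals of 427, 606 and 746 at E16, E18 and P3. That is 1.42-fold more at E18 and 1.75-fold more at P3 than at E16, under the 2-fold threshold. A second reading (1418910_at) gave 90.1, 206 and 204, or 2.28-fold and 2.26-fold more than at E16, and E18 and P3 nearly equal. Both had E16 as the low array. The Bmp7 probe set 1432410_a_at read 12.3, 14.6 and 7.6, all below the floor. Quantile normalization turned the P3 against E16 difference of the brightest probe set from 0.80 to 1.19 on the log2 scale, past 2-fold. The median over all genes was -0.17 before and 0.02 after it.

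Bmp6 was low at E18. Its single probe set had signals of 187 at E16, 29.3 at E18 and 125 at P3, and E18 alone was below the floor. Relative to E18, the signal was higher by at least 2.28-fold at E16 and by at least 1.52-fold at P3. P3 and E16 differed by -0.59 on the log2 scale. The deposited ratios themselves, with no floor, differ 6.40-fold between E16 and E18 and 4.26-fold between P3 and E18. With the floor doubled the bound between E18 and E16 fell under 2-fold, to a log2 difference of -0.19.

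Neither antagonist reached the floor at any stage. Nog, whose product noggin binds BMPs directly, had signals of 3.9, 3.9 and 4.0 at E16, E18 and P3. These values are known from the fixed divisor of 10 that replaced its middle value, and 1.7% of probe sets had a lower mean. For comparison, the 81 values of bacterial control probe sets had a median of 8.8 and reached 70.2. Grem1, a BMP antagonist of the DAN family, read 69.1, 66.9 and 67.6, with deposited ratios of 1.02, 0.989 and 1. Because a recovered signal may be understated, Grem1 may lie above the floor. No fold between stages is called for either gene, and a signal below the floor does not show that a transcript is absent.

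**Figure D2:**
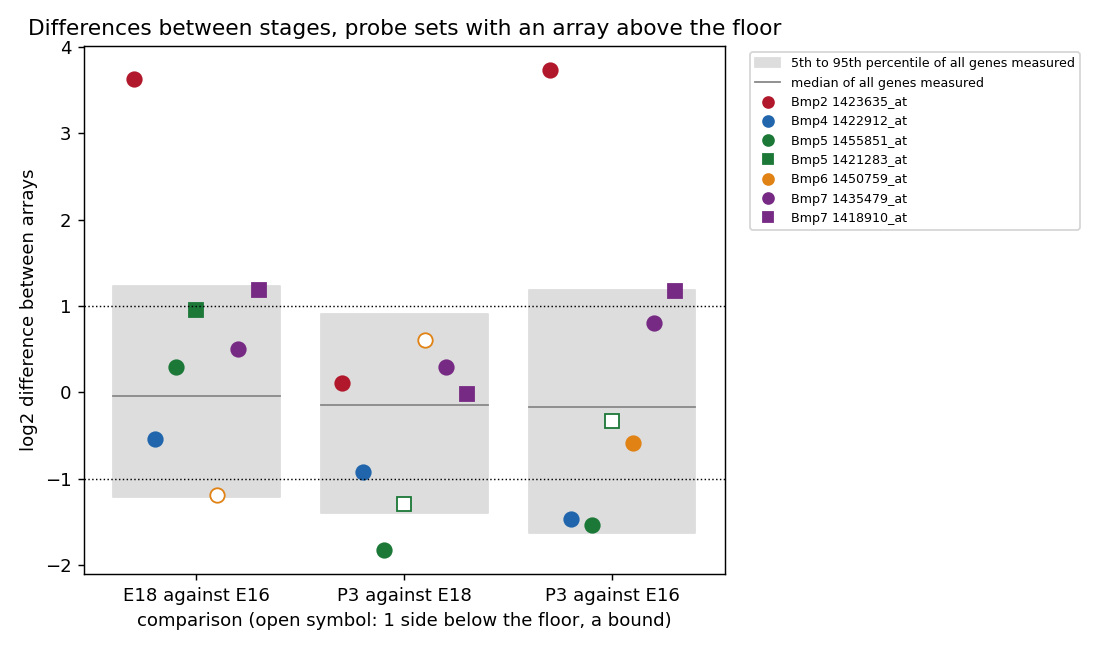
Log2 difference between arrays in the 3 comparisons for the 7 probe sets with at least 1 array at or above the floor; circles are brightest probe sets, squares others, open symbols bounds, dotted lines 2-fold, and grey bands the 5th to 95th percentile of all genes measured. Bmp2 stands at 3.62 and 3.73 against E16, and Bmp5 at -1.83 is below the band for P3 against E18.

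Counted by gene, 5 of the 7 were measured, and their calls went both ways. At E18 against E16, 1 was higher (Bmp2) and 1 lower (Bmp6, a bound), where 8.10% of 12031 genes were higher and 8.14% lower (16.2% either way). At P3 against E18, 0 were higher and 1 was lower (Bmp5), beside 4.08% and 11.8% of 12115 genes (15.8% either way). At P3 against E16, 1 was higher (Bmp2) and 2 were lower (Bmp4 and Bmp5), beside 6.58% and 15.6% of 12190 genes (22.2% either way). After quantile normalization the higher ones made up 48.9% of all genes called at P3 against E16, in place of 29.6%, with 2 members higher and 2 lower. At P3 against E18 that share went from 25.7% to 47.7%, with the members still 0 higher and 1 lower. The median log2 difference of the 5 was 0.30, 0.11 and -0.59 in these comparisons, and that of all genes -0.04, -0.15 and -0.17. Counted by probe set, 7 of 11 were measured, with 2 higher and 1 lower at E18 against E16 (7.77% and 8.02% of all probe sets), 0 and 2 at P3 against E18 (3.86% and 11.0%), and 2 and 2 at P3 against E16 (6.20% and 15.0%). The E16 array enters 2 of the comparisons and so do the others, so the comparisons are not independent.

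Relative to E16, the balance between ligands moved toward Bmp2. A change in the ratio of 2 probe sets on the same array does not depend on how the arrays were scaled. The ratio of Bmp2 to Bmp4 was 18.0 times its E16 value at E18 and 36.6 times at P3. Bmp2 to Bmp5 was 38.4 times its E16 value at P3, and 3.83 times its E18 value. Bmp2 to Bmp7 was 8.68 times its E16 value at E18 and 7.62 times at P3. Bmp2 to Bmp6 was 20.0 times its E16 value at P3, while at E18 Bmp6 was below the floor. Bmp7 to Bmp4 also shifted, to 2.07 times at E18 and 4.81 times at P3. These are changes of ratios and say nothing of which transcript is the more abundant.

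**Figure D3:**
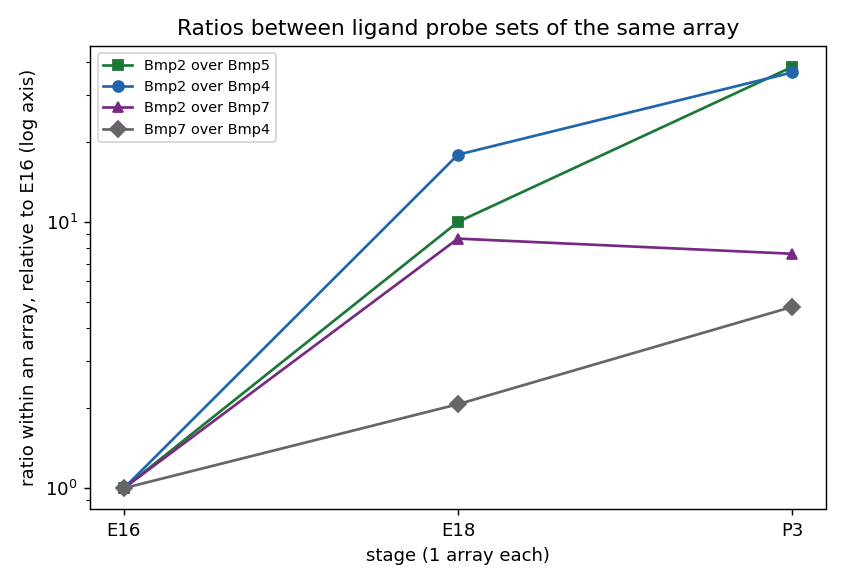
Ratio between the brightest probe sets of 2 ligands on the same array, relative to E16 (log axis), at E16, E18 and P3. Bmp2 over Bmp4 reaches 36.6 and Bmp2 over Bmp5 38.4 at P3, while Bmp2 over Bmp7 is 8.68 at E18 and 7.62 at P3.

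Bmp4 and Bmp5, the 2 ligands called lower at P3 than at E16, have promoters of different composition. RefSeq promoter sequences (GRCm38.p6) matched 4 members, Bmp4, Bmp5, Bmp6 and Grem1. The 250 bases before the transcription start are shown for the 2 ligands that were lower together, 5′ to 3′ on the gene's strand, at chr14:46390670-46390919 (minus strand) for Bmp4 and chr9:75775115-75775364 (plus strand) for Bmp5. Capitals mark matches on either strand to any of 6 short motifs, the TATA box TATAAA, the CCAAT box CCAAT, the GC box GGGCGG, the E-box CANNTG, an Msx motif TAATTG and a Runx motif TGTGGT.
Bmp4: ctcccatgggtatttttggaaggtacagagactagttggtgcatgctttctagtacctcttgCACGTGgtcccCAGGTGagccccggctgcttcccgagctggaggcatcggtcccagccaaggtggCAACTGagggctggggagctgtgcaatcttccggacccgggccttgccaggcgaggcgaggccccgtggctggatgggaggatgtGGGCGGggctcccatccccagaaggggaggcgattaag
Bmp5: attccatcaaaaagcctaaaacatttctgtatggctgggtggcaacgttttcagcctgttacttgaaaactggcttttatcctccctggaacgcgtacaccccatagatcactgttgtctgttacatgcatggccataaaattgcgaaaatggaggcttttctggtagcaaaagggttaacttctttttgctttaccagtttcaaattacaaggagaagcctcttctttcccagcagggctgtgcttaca
The Bmp4 window holds 3 E-boxes, which start 188, 177 and 123 bases before the transcription start, and 1 GC box at 38 bases, with no overlap between them. The Bmp5 window holds no match to any of the 6 and so has no capitals. GC content was 63.2% for Bmp4 and 42.8% for Bmp5, around a median of 52.4% over 32851 windows of the same length. Of those windows, 66.2% hold an E-box, 32.7% a GC box, 33.8% a CCAAT box, 14.0% the Runx motif, 12.4% the TATA box and 7.17% the Msx motif. A match describes letters only, and none of these data measured binding.

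No gene among those compared lay close to Bmp2 in pattern. Likeness was taken as the distance between genes over their E18 minus E16 and P3 minus E18 log2 differences, among 9859 other genes with no array below the floor, for members at least 2-fold apart between highest and lowest array. With 3 arrays such likeness is a description. Within a distance of 0.5 there were 0 genes for Bmp2, 766 for Bmp4 and 221 for Bmp5. Such counts depend on how many genes change by as much, and Bmp2 ranked 2 of 10351 at E18 against E16. Genes below the floor at E16 were not compared, among them Bmp8a, with signals of 26.0, 499 and 582. The nearest to Bmp2 were Sephs2, a selenophosphate synthetase gene (distance 0.76, signals 233, 2396 and 1576 by the brightest of 3 probe sets), Prss35 (0.98, signals 105, 658 and 756.5) and Ankrd6 (0.99, signals 163, 1013 and 1093). Nearest to Bmp4 were Gys1, a glycogen synthase gene (0.014), Armc1 (0.021) and Nt5c (0.026). Nearest to Bmp5 were Rbm14 (0.033), Depdc1a (0.037) and Nhp2 (0.040).

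The rest of the pathway was read from 6 lists, 62 genes in all, of which 58 had a probe set. At E18 against E16, 9 of 40 measured genes were higher and 4 lower, beside 8.10% and 8.14% of all genes, with a median of -0.05. At P3 against E18, 5 of 40 were higher and 3 lower (4.08% and 11.8% of all genes), with a median of -0.08. At P3 against E16, 7 of 41 were higher and 8 lower (6.58% and 15.6%), with a median of 0.29 against -0.17 for all genes. After quantile normalization the split at P3 against E16 was 10 higher and 7 lower.

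Among other BMP and GDF ligands, 4 of 8 genes were below the floor on every array, and Bmp8a was the single one past 2-fold. Bmp8a, a BMP of the same subgroup as Bmp7, had signals of 26.0, 499 and 582, low at E16 and high at E18 and P3. Relative to E16 it was higher by at least 6.08-fold at E18 and by at least 7.09-fold at P3. It has 1 probe set.

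Of 14 other inhibitors with a probe set, 6 were below the floor on every array. Lower at P3 than at E16 were 3 of 8 measured, and 0 were higher, beside 15.6% and 6.58% of all genes. Their median was -0.31, against -0.17 for all genes. Sostdc1, which encodes a secreted BMP and Wnt antagonist, had signals of 2653.5, 2239 and 623. It was 3.59-fold lower at P3 than at E18 (2.81-fold by another probe set) and 4.26-fold lower than at E16 (2.47-fold). Follistatin (Fst), an activin and BMP binding protein, had signals of 1459, 732 and 379.5 and was 3.84-fold lower at P3 (6.40-fold by another probe set). Twsg1, a chordin partner, read 1515, 548 and 494 on its brightest probe set, 2.76-fold lower at E18 and 3.07-fold lower at P3 relative to E16. Other Twsg1 probe sets gave 1.09-fold and 1.04-fold for E18 against E16, and 1.21-fold and at least 1.13-fold for P3 against E16. Bambi, a membrane pseudoreceptor that dampens signalling, was highest at E18 with signals of 993, 2308.5 and 1085, or 2.32-fold above E16 and 2.13-fold above P3. Chordin (Chrd) had signals of 131, 79.7 and 60.7.

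Proteases that process BMP precursors or cleave chordin went both ways. Bmp1, a metalloprotease rather than a ligand in spite of its name, had signals of 482, 154 and 298 with E18 3.12-fold under E16. The related Tll1 was lower by at least 3.17-fold on both later arrays relative to E16. Furin, a proprotein convertase that cleaves BMP precursors, was 2.15-fold higher at E18 than at E16 (275, 591 and 400.5). Pcsk5 was 2.67-fold higher at P3 than at E18 (1.12-fold to at least 5.12-fold by 3 other probe sets), and Pcsk6 was 2.25-fold lower at P3 than at E16.

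Receptors mostly stayed under 2-fold. The type I receptor gene Bmpr1a had signals of 1638, 1714 and 2159 on its brightest probe set, while another was 2.08-fold lower at P3 relative to E16. The type II receptor gene Bmpr2 had signals of 1899, 2465 and 1945, and another of its probe sets was 2.10-fold higher at E18 relative to E16. In that comparison the brightest Acvr2a probe set was 1.61-fold higher and its other one lower by at least 2.20-fold, so its direction depends on the probe set. Of 7 receptors and co-receptors measured, 0 passed 2-fold at E18 against E16, and at P3 against E16 0 were higher and 1 was lower, Rgmb (6.58% and 15.6% of all genes). This co-receptor gene was lower by at least 4.10-fold, and by at least 2.48-fold relative to E18. Against E16 its 4 other measured probe sets gave 1.36-fold and bounds of at least 1.02-fold to at least 2.28-fold. Endoglin (Eng), a co-receptor of endothelium, was 2.24-fold higher at P3 than at E18, and 1.49-fold by another probe set.

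Among Smads and their regulators, the inhibitory Smad6 had signals of 216, 529 and 1338, low at E16 and highest at P3. It was 2.45-fold higher at E18 than at E16 and a further 2.53-fold at P3, or 6.20-fold in all. Skil, a Smad co-repressor gene, was 2.46-fold and 3.09-fold higher at E18 and P3 than at E16. The brightest Smad1 and Smad5 probe sets, of the Smads that carry the BMP signal, were 2.86-fold and 2.75-fold lower at P3 than at E16. For Smad1 other probe sets gave 1.25-fold higher and 1.35-fold lower, so its direction depends on the probe set. For Smad5 others gave 1.47-fold and 1.30-fold lower. Smurf1, a ubiquitin ligase for Smads, was lower at E18 relative to E16 by at least 2.15-fold.

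Of the 6 pathway lists, the BMP target genes had the most members higher in each comparison. At E18 against E16, 4 of 9 were higher and 0 lower (8.10% and 8.14% of all genes), with a median of 0.83 against -0.04 for all genes. Id1, an inhibitor of basic helix-loop-helix factors, had signals of 82.7, 343 and 173.5 and was 4.14-fold higher at E18 than at E16. Id2 was 3.23-fold, Dlx5 2.10-fold and Msx2 2.02-fold higher. The brightest Id1, Id2 and Dlx5 probe sets are of types treated here as shared by several transcripts. Another Id2 probe set was higher by at least 1.51-fold. Without such shared probe sets, the 6 pathway lists together had 6 higher and 3 lower at E18 against E16, in place of 9 and 4. The other Msx2 probe set read 487, 481 and 496, so the Msx2 call depends on the probe set. At P3 against E18, 2 were higher and 0 lower (4.08% and 11.8% of all genes), Hey1 by 4.28-fold and Msx1 by 2.31-fold. The median in that comparison was -0.20, against -0.15 for all genes. Under 2-fold, Id1 (1.98-fold), Id2 (1.49-fold), Id3 (1.15-fold), Id4 (1.49-fold) and Dlx5 (1.56-fold) were lower. Msx2 (1.08-fold) and Sp7 (1.06-fold) were higher. Another Id4 probe set was 2.33-fold lower. The other Msx1 probe set was higher by at least 1.15-fold, so the Msx1 call depends on the probe set too. At P3 against E16, 4 were higher and 0 lower (6.58% and 15.6% of all genes), with a median of 0.85 against -0.17, namely Hey1 3.78-fold, Msx2 2.19-fold, Id2 2.16-fold and Id1 2.10-fold. Msx1 was 1.80-fold higher at P3 than at E16 (1.11-fold by the other probe set), under the threshold.

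**Figure D4:**
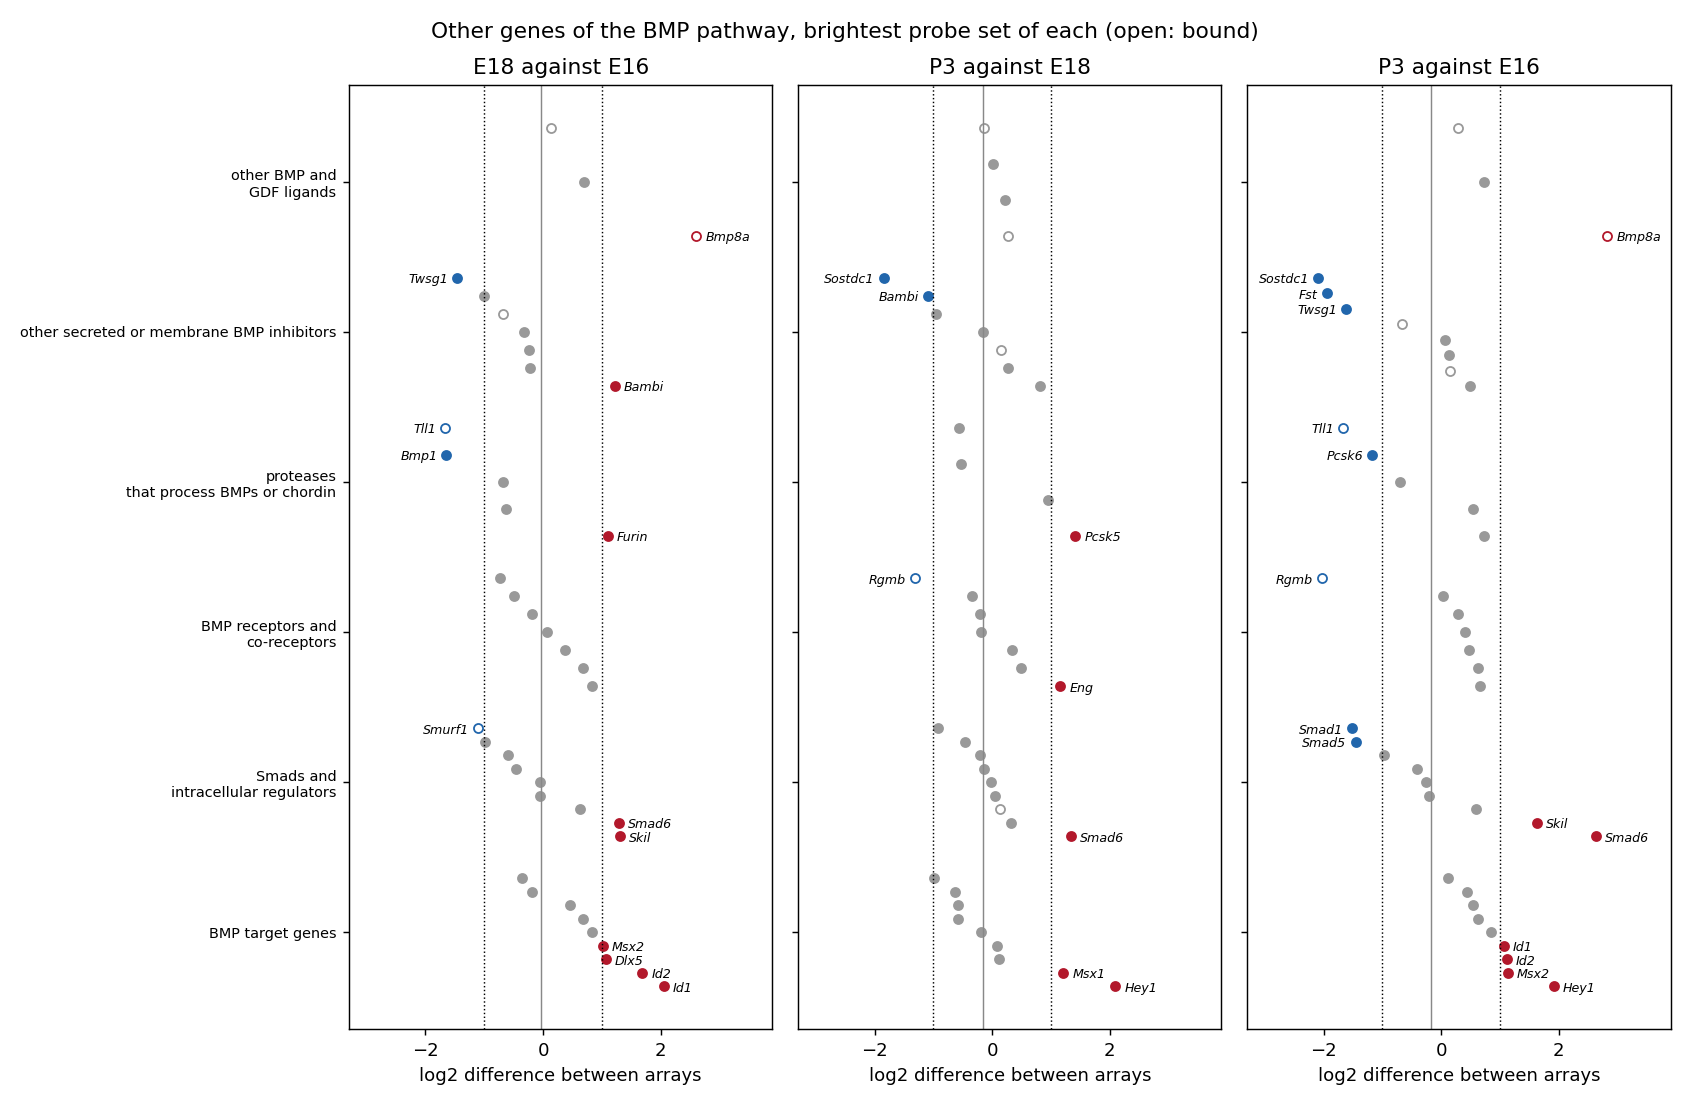
Log2 difference between arrays for the brightest probe set of each other pathway gene, by list, in the 3 comparisons; open circles are bounds, dotted lines 2-fold, red and blue past 2-fold, and the grey line is the median of all genes. Bmp8a lies at 2.60 and 2.83 against E16, Smad6 at 2.63 for P3 against E16, and no target gene is past 2-fold downwards in any panel.

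Markers of other tissues moved with the stages, and in pooled tissue fewer cells of a type and less RNA per cell cannot be told apart. None of the 10 dental mesenchyme markers fell below the floor on any array. At E18, however, 6 of 10 were at least 2-fold lower than at E16 and 1 was higher (8.14% and 8.10% of all genes). Their summed signal was 12891, 8969 and 15328, with Col1a2 at 6264 and Vim at 3749 in the P3 sum. At P3 against E16, 3 of 10 were higher and 6 lower (6.58% and 15.6% of all genes). Of the first 4 on the list, Pax9 was 4.48-fold, Barx1 2.96-fold and Lhx8 3.48-fold lower by the brightest probe set. Msx1 was 1.80-fold higher, under the threshold. Other Pax9 probe sets gave 1.04-fold higher and 1.85-fold lower. The median of the list there was -1.53, against -0.17 for all genes. Dental epithelium, which is known to make BMPs as well, was present in all 3 samples by its markers. Of 12 measured, 11 were higher and 0 lower at E18 against E16 (8.10% and 8.14% of all genes). At P3 against E18, 3 of 13 were higher and 9 lower (4.08% and 11.8% of all genes). Their summed signal was 7997, 24312 and 15166, and the E-cadherin gene Cdh1 read 276.5, 1105 and 386.5, Krt5 2069, 4821 and 752, and Krt14 598, 1663.5 and 442. The enamel gene Amelx instead rose to P3, at 51.5, 564.5 and 2340. Ambn at 5377 and Mmp20 at 2367 were, with Amelx, the largest terms of the P3 sum. At P3 against E16, 4 of 13 epithelial markers were higher and 3 lower (6.58% and 15.6% of all genes). The median of the list in that comparison was 0.004, and Krt5 was 2.75-fold lower. From E18 to P3, Cdh1 fell 2.86-fold and Krt5 6.41-fold, while Amelx rose 4.14-fold. The part of epithelium in the values of Bmp2, Bmp5, Bmp7 and Bambi was not tested.

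Odontoblast markers had a summed signal of 2213, 9796 and 27016, with 5 of 7 higher and 1 lower at P3 against E16. Over all genes 6.58% were higher and 15.6% lower in that comparison, and these shares also stand beside its counts for the lists below. Dspp, the dentin sialophosphoprotein gene, was below the floor at E16 (41.9) and read 4191 at E18. At E18 against E16, 3 of 7 odontoblast markers were higher, 1 was lower and 3 were not past 2-fold (8.10% higher and 8.14% lower of all genes). From E18 to P3 the odontoblast genes went different ways. Dspp rose 4.66-fold to 19517, and Alpl (289, 269.5 and 1060) was 3.93-fold higher. Phex (46.7, 327 and 4148.5) was 12.7-fold higher by its brightest probe set and 1.44-fold by the other. Dmp1, a dentin matrix protein gene, had signals of 15.6, 3720 and 782 and fell 4.75-fold, or 3.77-fold by another probe set. Dspp makes up most of the sum at P3. Macrophage markers had a summed signal of 1962, 4079 and 7369, with 4 of 6 higher and 0 lower at P3 against E16. Endothelial markers summed to 3374, 1576 and 1624, with 0 of 5 higher and 1 lower in the same comparison, which the counts for the next lists also use. Cartilage markers summed to 1474, 1665 and 1655 (2 of 5 higher, 0 lower), and mural cell markers to 2726, 3530 and 3132 (1 of 5 higher, 0 lower). Bone markers had 2 genes measured, with 0 higher and 1 lower and a sum of 1788, 1313 and 1216. Schwann cell (330, 269 and 274) and skeletal muscle (381, 190 and 345) markers summed to low signals, with 0 past 2-fold of 1 and 3 measured. Their part in the BMP values was not tested.

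**Figure D5:**
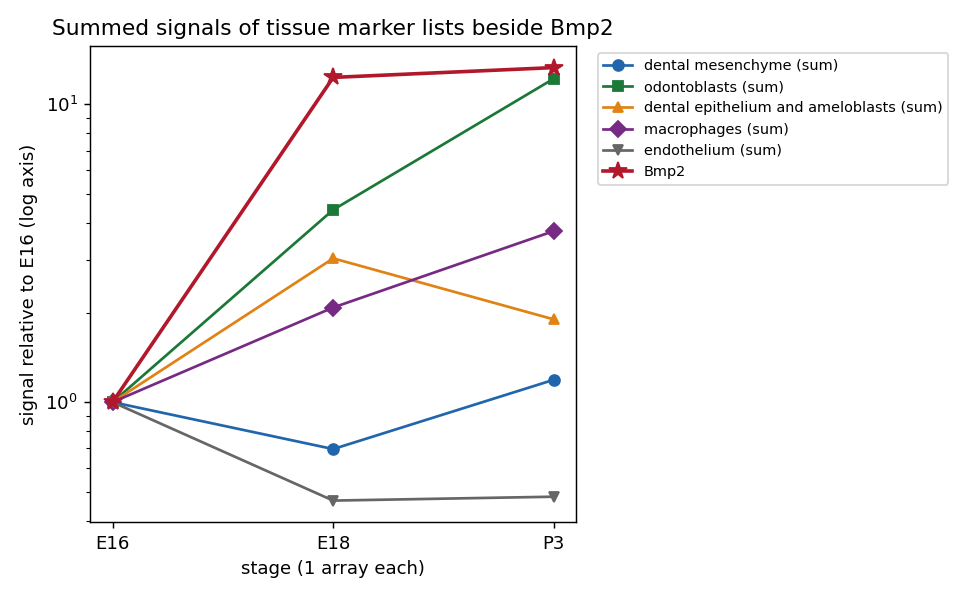
Summed recovered signal of 5 tissue marker lists and the signal of Bmp2, each relative to its E16 value (log axis), at E16, E18 and P3. Bmp2 is at 12.3 and 13.3, and the odontoblast sum, most of it Dspp at P3, reaches 12.2. The epithelial sum peaks at E18 and is lower at P3, where Ambn, Mmp20 and Amelx are its largest terms.

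The control probe sets differed between arrays. Across 18 hybridisation spike-in probe sets the E18 signals were 2.17 times those of E16 by the median, and those of P3 were 1.04 times. Actin's 3' to 5' signal ratio, which reads how whole the labelled RNA is, was 3.87 times the E16 value at E18 and 2.46 times at P3. The same ratio for Gapdh was 1.42 and 0.355 times. The spike-ins set E18 apart, actin both later arrays, and Gapdh most of all P3. The part of these differences in the BMP values was not tested.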

How the data were processed

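Total RNA of 3 pooled papilla samples was labelled with biotin after 2 cycles of cDNA synthesis, per the labels' protocols. GCOS is named, with no version, per the submitters' processing notes; how they were scaled and centred is not given. The deposited values are ratios: in 90.4% of 45101 probe sets the middle of the 3 was 1 within 1e-06, and in the other 4347 99.98% of values were within 0.01 of a whole step, with factors relative to P3 of 0.7177 (E16) and 1.0802 (E18). Signals were recovered as the smallest whole steps within a relative 3e-07, with a middle signal of at least 10. Signals under the floor were set to it before log2. The recovery and the calls were tested on simulated data.

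Of 35890 listed probe sets, 34945 (controls left out) had 1 symbol, and 932 several; 9160 others are not listed. Of the 34945, 34741 matched RefSeq by gene number and 0 symbols changed. No build is named, so gene positions are not given, except those of the RefSeq promoter windows. All 11 member probe sets are reported. Pathway genes are named when past 2-fold in any comparison, tissue markers up to 4 per list, and 3 nearest genes per qualifying member. The pathway genes Bmpr1a, Bmpr2, Acvr2a, Chrd, Id3, Id4 and Sp7 fall outside this rule and were chosen after their values were seen. So were the tissue markers Col1a2, Vim, Ambn and Mmp20. Members and lists were chosen with earlier results of these data known. The promoter motifs were chosen after the values were seen. Python 3.11.15, numpy 2.4.6 and pandas 2.3.3 were used, with 8 alternatives planned and 1 added later. The number of arrays limits the precision.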

Additional observations from a re-analysis of the deposited data

How the results depend on the processing

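The 3 arrays already had nearly equal median signals (82.0, 81.8 and 82.3), so median scaling changed little. Among the member genes' log2 differences, 113 of the alternatives kept direction and side of 2-fold, 4 passed it, 2 lost it and 0 reversed. Bmp2 stayed between 3.35 and 3.67 (E18 against E16) and between 3.46 and 4.06 (P3 against E16), and Bmp4 between -1.47 and -1.16 (P3 against E16). Bmp5 at P3 against E16 fell under 2-fold, to -0.93, by the median over its probe sets. Bmp6 at E18 against E16 did so, at -0.19, with the floor at 164. Bmp7 passed it at 1.19 after quantile normalization and 1.01 after scaling to the median ratio of measured genes, an alternative added after seeing the data. Bmp6 at P3 against E18 rose to 1.60 with the floor at 41 and 2.09 with none.

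Counts of member genes past the threshold moved from 2 to 1 (E18 against E16) with the floor at 164 or at 3-fold, from 3 to 1 (P3 against E16) at 3-fold, and from 1 to 2 (P3 against E18) with the floor at 41 or none. Pathway counts moved at 3-fold from 13 to 5, 8 to 2 and 15 to 9 in the order E18 against E16, P3 against E18 and P3 against E16, and at P3 against E18 to 4 by the median over probe sets and 5 without probe sets shared by several transcripts, where the split turned from 5 higher and 3 lower to 2 and 3. By the median over probe sets the P3 against E16 count was 10 (6 higher, 4 lower) in place of 15 (7 and 8). Over all genes, no floor gave 4336, 4364 and 5096 and 3-fold gave 528, 560 and 969, in place of 1953, 1920 and 2705. With no floor the brightest probe set was still chosen by recovered signal. No paired analysis was possible because each stage has 1 array. Signal over background limits Nog, Grem1 and Bmp6.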
